A study of Mus musculus with 6 samples.

Results

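RNA-seq libraries of satellite cells (SCs), the stem cells of adult skeletal muscle, were read for 9 genes of muscle membrane repair: Trim72, Dysf, Myof, Cav1, Cav3, Anxa1, Anxa2, Anxa5 and Anxa6. They were chosen by name, with earlier results of these data known. They are the core repair genes of the field together with the caveolins, 9 of the 35976 genes in the deposited files. All 9 passed the filter on low counts, a count above 10 in 2 libraries or more, which left 17348 genes to test. The study deleted the DNA-binding subunit of the CCAAT-binding factor NF-Y and compared 3 NF-YAcKO with 3 NF-YAfl/fl libraries. NF-YAcKO mice carried floxed Nfya alleles and Pax7-CreERT2, a tamoxifen-inducible Cre active in Pax7+ cells, and NF-YAfl/fl controls carried the floxed alleles without this Cre. Both groups received tamoxifen, on 5 consecutive days at 0.1 mg/g of body weight by the study's methods. By the labels the mice were 5 to 7 weeks old, and by the methods they were males aged 6 to 8 weeks. Muscles were taken 7 days after the last injection, SCs were enriched by removing endothelial, blood-derived and Sca1+ cells with magnetic beads, and the cells were collected after 4 days in growth medium. The libraries are therefore mixed cultures in which deletion depends on Pax7 expression at the time of injection. Nothing in the labels says how many mice stand behind a library, so that p-values measure the spread between these libraries.

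A torn plasma membrane lets calcium into a muscle fibre, and the tear is closed within seconds by proteins that gather at the site. MG53, the product of Trim72, is a muscle-restricted ubiquitin ligase that brings vesicles to the wound, dysferlin (Dysf) is the calcium-binding ferlin of the muscle membrane that is lost in limb-girdle muscular dystrophy, and annexins bind exposed phospholipids in a calcium-dependent way and form a cap. Caveolin-3 is the muscle form of the caveola coat protein, whereas Cav1 is the form of most other cells, and Myof encodes myoferlin, the dysferlin paralog of dividing and fusing myoblasts.

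The total expected counts per library were 26936230 to 41118984, at which 3 counts equal 0.0705 to 0.115 CPM (counts scaled to a common library size after edgeR's TMM normalization). The entry that the authors had added for the deleted Nfya allele held 27.6% ± 6.05 (SD, n = 3) of the Nfya counts in NF-YAcKO and 0 counts in each control (two-sided exact permutation test, p = 0.1, below which 3 libraries against 3 cannot go). The other Nfya transcripts together were at 19.9 ± 1.88 CPM in NF-YAcKO and at 28.7 ± 7.20 CPM in NF-YAfl/fl (exact permutation test, p = 0.1). Most of the Nfya counts in the NF-YAcKO libraries were thus not assigned to the deleted allele. Counts are not scaled by transcript length, so that this is no share of RNA molecules. Xist was at 836 to 852 CPM in NF-YAcKO and at 0.306 to 0.475 CPM in NF-YAfl/fl. The Y-linked gene Ddx3y was at 0.0470 to 0.0957 CPM in NF-YAcKO and at 80.9 to 88.6 CPM in NF-YAfl/fl. The NF-YAcKO libraries thus had the pattern of female cells and the controls that of male cells, although the methods name males. This sex-linked difference cannot be told apart from the genotype. The summed level of 14 markers of terminal muscle was 697 to 1541 CPM in NF-YAcKO and 50839 to 62264 CPM in NF-YAfl/fl, and that of 9 macrophage markers was 132 to 250 CPM against 5.97 to 15.2 CPM. No gene of either list was at 0 in all libraries. NF-YAfl/fl library 3 stood apart from the other controls, and values without it are given where they change a result.

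Differences between the genotypes were tested with edgeR (quasi-likelihood test, Benjamini-Hochberg adjustment over all tested genes, FDR), and a gene was called where its FDR was under 0.01 and its log2 fold change beyond 1. Of the 9 repair genes, 3 were called lower in NF-YAcKO (Trim72, Dysf and Cav3), and 7.67% of all tested genes were called lower. No member was called higher, against 4.65% of all tested genes. At an unadjusted p under 0.05, 1 member was higher and 3 were lower, where 24.6% of tested genes were higher and 24.1% lower. DESeq2 likewise called 0 members higher and 3 lower. It made more calls than edgeR over all genes, 986 against 806 upward and 1804 against 1331 downward. At an FDR under 0.05 without a minimum fold change the counts of members were again 3 lower and 0 higher, where 18.9% of tested genes were lower and 19.7% higher. In CPM, every NF-YAcKO library lay below every NF-YAfl/fl library in 3 members, a pattern that 26.2% of tested genes had. Every NF-YAcKO library lay above every control in 2 members, Myof and Anxa2, a pattern that 29.1% of tested genes had. In TPM, the authors' length-scaled level, NF-YAfl/fl library 2 lay above every NF-YAcKO library for both genes. The median log2 fold change of the members was 0.16, and that of all tested genes was -0.02. Among these 9 genes, the called ones are those known from striated muscle. The ferlin, the caveolin and the annexins that many cell types express were not called. This grouping was read with the calls known and was not tested. In the further list below, called genes were not limited to muscle forms and included Anxa11, Ahnak2 and Vamp2.

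**Figure D1:**
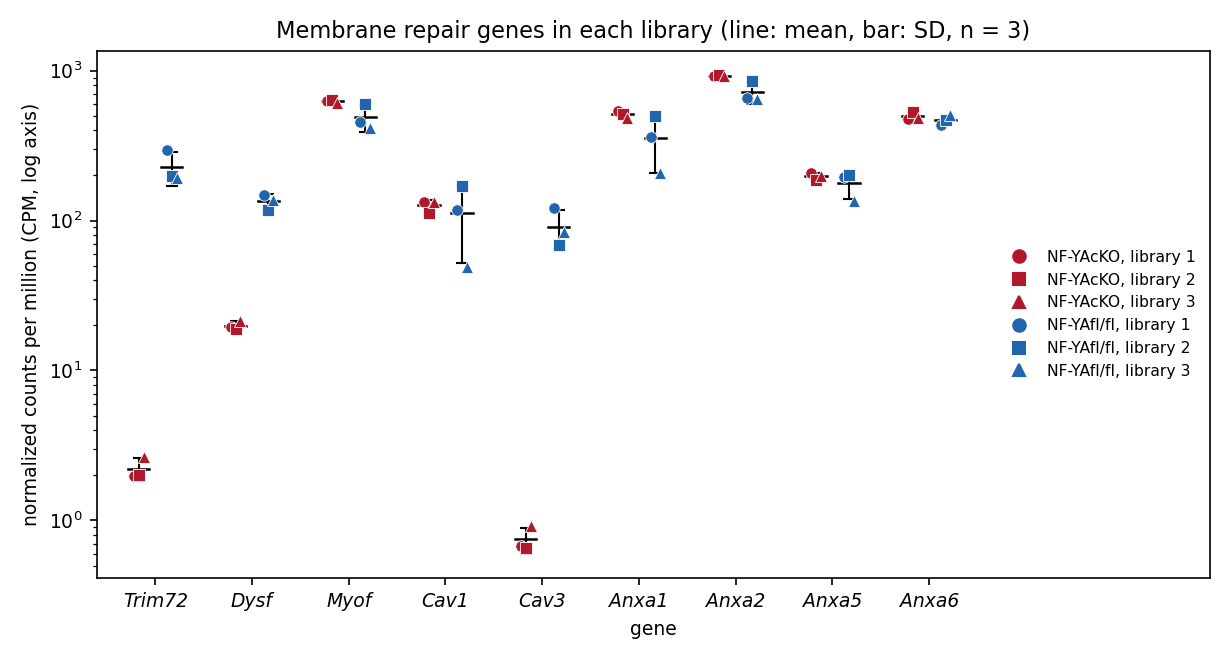
Level of each membrane repair gene in every library, as CPM on a log axis, with NF-YAcKO libraries in red and NF-YAfl/fl libraries in blue (line: mean, bar: SD, n = 3). Trim72, Dysf and Cav3 have their red points far below their blue points, and the points of Cav1, Anxa1, Anxa5 and Anxa6 overlap between the genotypes.

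Trim72 lies on chr7:128003949-128011033 on the plus strand of GRCm38 (mm10). Its level was 1.98, 2.0 and 2.66 CPM in the NF-YAcKO libraries and 295, 198 and 193 CPM in the NF-YAfl/fl libraries. The groups did not overlap, and the lowest control library was far above the highest NF-YAcKO library. Trim72 fell 103-fold (log2 fold change -6.69, standard error 0.25, 95% interval -7.29 to -6.08, edgeR FDR = 4.59e-05). Without NF-YAfl/fl library 3 the log2 fold change was -6.79. An exon of the antisense gene Gm15533 overlaps an exon of Trim72. The library kit keeps strand, and whether the counting used it is not stated.

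Cav3, on chr6:112459505-112472872 (plus strand), had the largest change of the members. Its level was 0.670, 0.652 and 0.917 CPM in NF-YAcKO and 121, 68.3 and 84.4 CPM in NF-YAfl/fl. The groups were apart in every library, and the NF-YAcKO values rest on 21, 27 and 39 counts. Cav3 fell 121-fold (log2 fold change -6.92, standard error 0.30, 95% interval -7.63 to -6.21, edgeR FDR = 5.29e-05). The intervals of Cav3 and Trim72 overlap, and no test compared the sizes of their decreases.

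Dysf, on chr6:84008590-84211060 (plus strand), fell by less. It was at 19.4, 18.8 and 21.5 CPM in NF-YAcKO and at 148, 118 and 138 CPM in NF-YAfl/fl. Replicates within a genotype were close to each other and the genotypes did not overlap. The decrease was 6.76-fold (log2 fold change -2.76, standard error 0.12, 95% interval -3.04 to -2.47, edgeR FDR = 5.35e-05), and its interval lay apart from those of Trim72 and Cav3. Exons of the antisense genes Gm33024 and Gm15475 overlap Dysf. The 14 markers of terminal muscle, such as Myh3, Acta1 and Ttn, were all called lower, with log2 fold changes of -8.96 to -4.45 and a median of -6.69. The values of Trim72 and Cav3 lay inside that range and the value of Dysf outside it, and no test compared the genes with the markers. Members and markers were chosen with earlier results of these data known, so that this range is a description. In bulk libraries fewer cells of a type and less RNA per cell cannot be told apart.

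**Figure D2:**
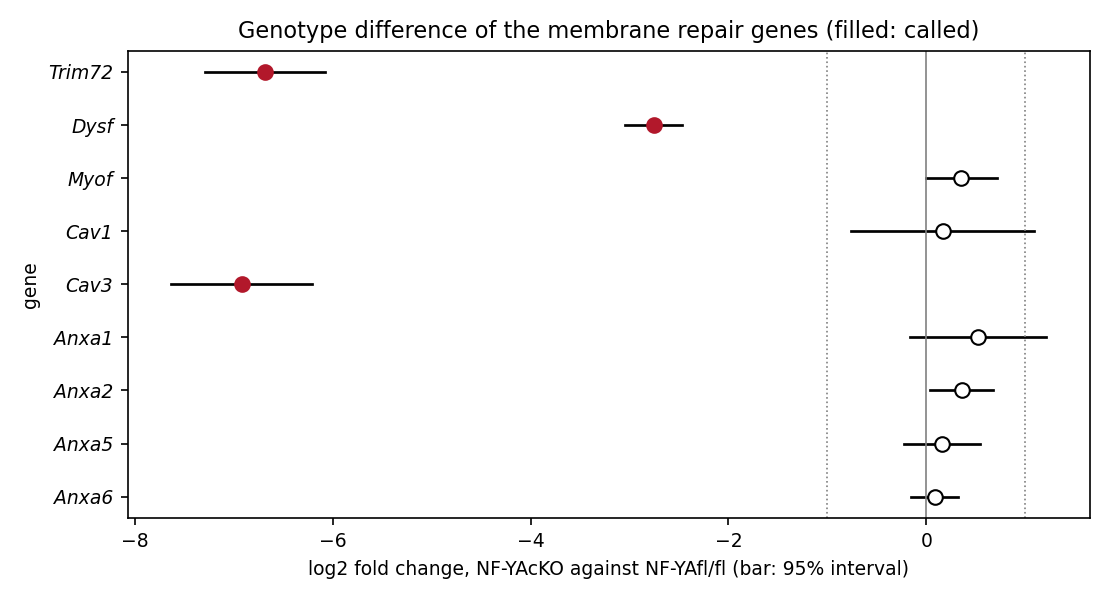
Log2 fold change of each membrane repair gene between NF-YAcKO and NF-YAfl/fl, with its 95% interval from edgeR (n = 3 libraries per genotype). Filled points passed an FDR of 0.01 and a log2 fold change beyond 1 (dotted lines), and the intervals of Trim72 and Cav3 overlap each other but not that of Dysf.

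The sequences before the starts of Trim72 and Cav3, the members with the largest decreases, are shown with that of Myof, which was not called. They are from RefSeq (GRCm38.p6), which gave at least 1 window for 8 of the 9 genes (not for Anxa6) and 10 windows in all. Each line holds the 250 bases before the start, 5′ to 3′ on the strand of the gene. Capitals mark CCAAT, the pentamer bound by NF-Y, read on the printed strand or as its reverse complement ATTGG, and CANNTG, the E-box bound by myogenic factors such as MyoD, which reads the same on both strands in its fixed letters.
Trim72, chr7:128004128-128004377, plus strand: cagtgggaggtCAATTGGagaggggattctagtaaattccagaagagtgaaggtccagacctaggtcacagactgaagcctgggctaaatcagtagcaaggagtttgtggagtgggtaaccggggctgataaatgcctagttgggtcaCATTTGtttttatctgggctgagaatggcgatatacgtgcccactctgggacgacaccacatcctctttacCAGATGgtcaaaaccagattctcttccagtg
Cav3, chr6:112459255-112459504, plus strand: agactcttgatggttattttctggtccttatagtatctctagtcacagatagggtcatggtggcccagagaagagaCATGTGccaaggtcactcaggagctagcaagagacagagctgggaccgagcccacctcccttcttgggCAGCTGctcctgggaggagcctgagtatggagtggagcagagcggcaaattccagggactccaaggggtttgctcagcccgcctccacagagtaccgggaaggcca
Myof, chr19:38043578-38043827, minus strand: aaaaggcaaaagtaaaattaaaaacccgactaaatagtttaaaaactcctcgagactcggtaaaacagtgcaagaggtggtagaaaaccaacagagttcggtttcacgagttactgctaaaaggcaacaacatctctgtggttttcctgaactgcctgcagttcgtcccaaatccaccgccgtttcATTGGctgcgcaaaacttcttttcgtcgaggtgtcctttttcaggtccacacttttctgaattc

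Positions count from the start, with negative values before it. Trim72 held an ATTGG at -237, which overlaps a CAATTG at -239. The other CANNTG matches of Trim72 were CATTTG at -102 and CAGATG at -31. In Cav3 the window held no CCAAT and had CATGTG at -174 and CAGCTG, an E-box variant bound by MyoD, at -106. Myof held an ATTGG at -64 and no CANNTG. Over windows that run from 250 bases before to 50 bases after a start, CCAAT was in 3 of the members' 10 windows and in 37.4% of 32851 windows of all genes, CANNTG in 7 and in 72.3%, and CAGCTG in 1 and in 16.3%. By the GENCODE annotation (M21) the printed Trim72 stretch lies between the first exons of its longer transcript and inside an exon of the antisense Gm15533. A match is a stretch of letters and no measure of binding.

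Myof, on chr19:37899036-38043577 (minus strand), moved in the other direction from its paralog Dysf without passing the test. It was at 628, 640 and 613 CPM in NF-YAcKO and at 456, 603 and 415 CPM in NF-YAfl/fl. In CPM every NF-YAcKO library was above every control library, and NF-YAfl/fl library 2 came within a few percent of them. In TPM that control library (118) lay above all NF-YAcKO libraries (88.9 to 102). The log2 fold change was 0.35 (standard error 0.15, 95% interval -0.01 to 0.71, edgeR FDR = 0.107). Without NF-YAfl/fl library 2 it was 0.52 (FDR = 0.00831), and without NF-YAfl/fl library 3 it was 0.24 (FDR = 0.151). These fold changes stay under the minimum of a call.

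Cav1, on chr6:17306335-17341452 (plus strand), was at 132, 113 and 133 CPM in NF-YAcKO and at 118, 170 and 49.4 CPM in NF-YAfl/fl. The control libraries enclosed all NF-YAcKO libraries, and NF-YAfl/fl library 3 was the lowest. The log2 fold change of 0.17 had a 95% interval of -0.76 to 1.09 (standard error 0.39, edgeR FDR = 0.762), the widest of the members. Without NF-YAfl/fl library 3 the value turned to -0.20 (FDR = 0.336). In that library the summed level of 8 fibro-adipogenic markers was 116 CPM, against 409 and 517 CPM in the other controls and 314 to 366 CPM in NF-YAcKO, and Pdgfra, a receptor of these cells, was at 21.6 CPM against 132 and 147 CPM. The summed level of 8 myoblast markers was highest in NF-YAfl/fl library 3, at 5328 CPM against 3768 and 2807 CPM in the other controls. The part of either cell type in the level of Cav1 was not tested.

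Among the annexins, Anxa2 (chr9:69453620-69491795, plus strand), which joins S100a10 in a membrane-bridging complex, was at 923, 941 and 917 CPM in NF-YAcKO and at 659, 859 and 648 CPM in NF-YAfl/fl. As with Myof, every NF-YAcKO library lay above every control in CPM, with NF-YAfl/fl library 2 the nearest. In TPM that control library (973) lay above all NF-YAcKO libraries (753 to 869). The log2 fold change was 0.36 (standard error 0.13, 95% interval 0.04 to 0.68 before adjustment, edgeR FDR = 0.0730). It was 0.49 without NF-YAfl/fl library 2 (FDR = 0.00800) and 0.28 without NF-YAfl/fl library 3 (FDR = 0.0937). The antisense gene Gm16144 overlaps an exon of Anxa2. Anxa1 (chr19:20373428-20390944, minus strand), known as a mediator of the resolution of inflammation beside its role at wounds, was at 539, 514 and 482 CPM in NF-YAcKO and at 360, 500 and 207 CPM in NF-YAfl/fl. The groups overlapped through NF-YAfl/fl library 2, and the log2 fold change of 0.52 (standard error 0.29, 95% interval -0.16 to 1.21) did not pass the test (edgeR FDR = 0.192). It was 0.84 without NF-YAfl/fl library 2 (FDR = 0.0363) and 0.25 without NF-YAfl/fl library 3 (FDR = 0.194).

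Anxa5 (chr3:36448923-36475894, minus strand), which binds phosphatidylserine and forms ordered arrays on membranes, was at 209, 186 and 200 CPM in NF-YAcKO and at 195, 202 and 135 CPM in NF-YAfl/fl. The first 2 control libraries lay within the range of NF-YAcKO and library 3 below it. Its log2 fold change was 0.16 (standard error 0.16, 95% interval -0.22 to 0.55, edgeR FDR = 0.464), and -0.01 without NF-YAfl/fl library 3. Anxa6 (chr11:54979108-55033445, minus strand), the annexin with a duplicated core, was at 473, 530 and 486 CPM in NF-YAcKO and at 436, 467 and 503 CPM in NF-YAfl/fl. Its libraries were interleaved, and it had the smallest value of the members, a log2 fold change of 0.08 (standard error 0.10, 95% interval -0.16 to 0.32, edgeR FDR = 0.546). Without NF-YAcKO library 2 it was -0.0026. Anxa1 and Anxa5, like Cav1, Anxa2 and Myof, had their lowest CPM in NF-YAfl/fl library 3. In that library the summed fibro-adipogenic markers were lowest and the summed myoblast markers highest. Macrophages hold annexins too, and their markers were higher in all NF-YAcKO libraries. The part of any of these cell types in the annexin levels was not tested.

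Levels of different genes were compared per length, in TPM, the authors' length-scaled level with the same sum in every library. In NF-YAcKO the mean TPM ran from Anxa2 (818) over Anxa1 (446), Anxa6 (212), Anxa5 (136), Myof (96.0), Cav1 (60.7) and Dysf (3.19) to Trim72 (0.930) and Cav3 (0.810). Only the last pair of neighbours overlapped between libraries. In NF-YAfl/fl the order was Anxa2 (694), Anxa1 (348), Anxa6 (214), Anxa5 (133), Trim72 (108), Cav3 (104), Myof (82.5), Cav1 (60.8) and Dysf (23.1), and all neighbours overlapped except Anxa6 and Anxa5. Trim72 and Cav3 thus stood in the middle of the controls' order and at the end of that of NF-YAcKO, while the annexins led both.

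The balance within families was read as a share of the summed TPM in each library, which does not depend on library size. Cav3 made up 1.14%, 1.29% and 1.52% of Cav1 and Cav3 together in NF-YAcKO and 70.2%, 48.0% and 79.0% in NF-YAfl/fl. The muscle caveolin was thus the larger or nearly equal part in each control library and a trace in each NF-YAcKO library, with a mean difference of -64.4 percentage points (two-sided exact permutation test, p = 0.1). Dysf made up 3.17%, 2.98% and 3.48% of Dysf and Myof together in NF-YAcKO and 25.6%, 17.1% and 26.0% in NF-YAfl/fl, a difference of -19.7 points without overlap (exact permutation test, p = 0.1). The shares of the 4 annexins overlapped between the genotypes. Anxa2 held 50.7% ± 0.707 of their summed TPM in NF-YAcKO and 50.4% ± 3.10 in NF-YAfl/fl (exact permutation test, p = 0.9), and Anxa1 held 27.6% ± 1.09 and 23.7% ± 5.98 (p = 0.4 by the same exact test). Anxa5 held 8.43% ± 0.532 and 9.58% ± 1.24 (exact p = 0.2) and Anxa6 13.2% ± 0.743 and 16.3% ± 3.77 (exact p = 0.3). Without NF-YAfl/fl library 3 the shares of Anxa2 and Anxa5 no longer overlapped, with differences of 2.05 and -1.58 points (exact permutation test, p = 0.1 for each), and those of Anxa1 and Anxa6 came to 0.517 and -0.982 points. The summed TPM of the 4 annexins was 1612 ± 129 in NF-YAcKO and 1389 ± 531 in NF-YAfl/fl (SD, n = 3, exact permutation test, p = 0.6).

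**Figure D3:**
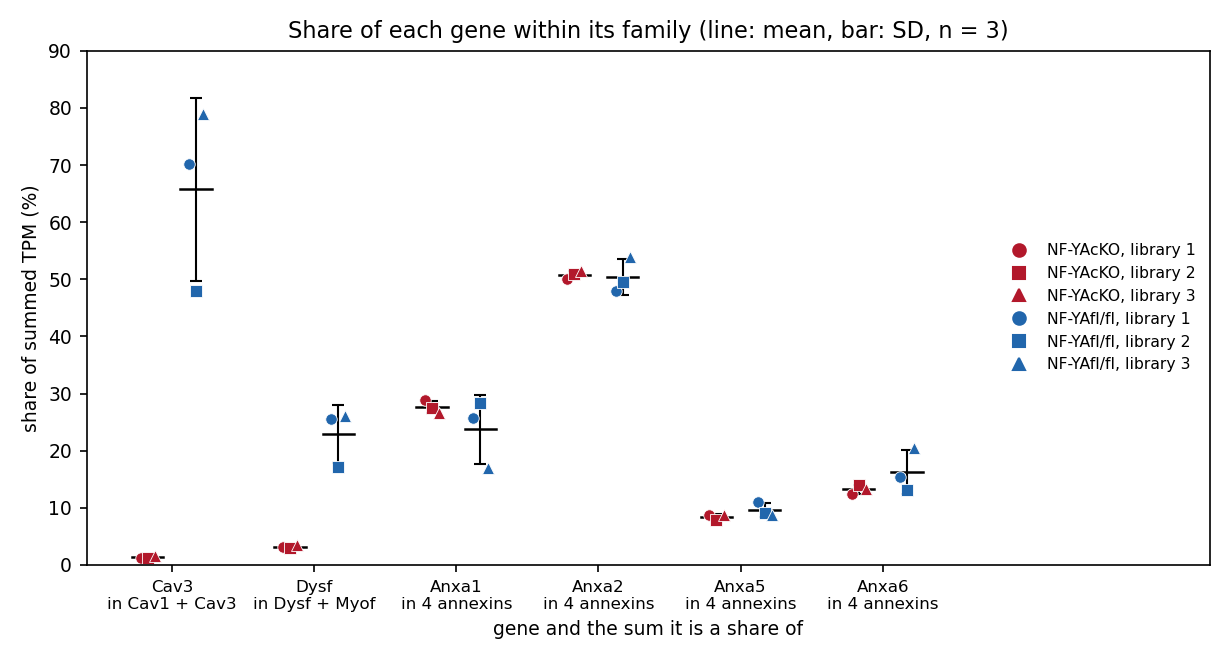
Share of each gene in the summed TPM of its family in every library, in percent (red: NF-YAcKO, blue: NF-YAfl/fl, line: mean, bar: SD, n = 3). With all libraries, the shares of Cav3 and Dysf are 3.48% or less in NF-YAcKO and at least 17.1% in NF-YAfl/fl, and the shares of the 4 annexins overlap between the genotypes.

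The files also split each gene over its transcripts, and 33 transcripts of the 9 genes reached 1 CPM in any library. Their percent of the gene's TPM was apart between the genotypes in 1 of 3 entries of Trim72, 4 of 13 of Dysf, 3 of 4 of Myof, 2 of 5 of Cav1 and 2 of 3 of Anxa6, and in none of Anxa2, while Cav3, Anxa1 and Anxa5 have a single entry. These are 12 of the 30 entries of the 6 genes with several, and over all genes with several entries 21.6% of 35536 transcripts were apart. With 3 against 3 libraries no exact p falls under 0.1, and no transcript passed an adjustment over the 33 (lowest Benjamini-Hochberg p of 0.275 for the percent of TPM, exact permutation tests). The transcripts of Myof and Anxa6 differ by small coding exons, and these pairs were chosen after their values were seen. The exons are shown in capitals with 10 bases of the neighbouring exon on each side, from GENCODE M21 (GRCm38), 5′ to 3′ on the strand of the gene.
Myof exon 17, chr19:37969907-37969945, minus strand: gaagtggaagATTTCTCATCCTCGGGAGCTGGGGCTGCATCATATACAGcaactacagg
Anxa6 exon 21, chr11:54987051-54987068, minus strand: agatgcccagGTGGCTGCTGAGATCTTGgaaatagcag

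The Myof entry with exon 17, of 39 bases, took 79.3%, 81.4% and 80.0% of the counts of the entries with and without it in NF-YAcKO and 57.5%, 55.8% and 44.3% in NF-YAfl/fl. All NF-YAcKO libraries were higher, by 27.7 percentage points on average (two-sided exact permutation test, p = 0.1). In CPM the entry with the exon was at 476 ± 13.4 in NF-YAcKO and 257 ± 76.7 in NF-YAfl/fl, and the entry without it at 117 ± 6.54 and 227 ± 35.4 (SD, n = 3). The entry with the exon was higher and the one without it lower in every NF-YAcKO library than in every control, and neither passed the adjustment over transcripts (Benjamini-Hochberg p = 0.22 for CPM, exact permutation tests). The Anxa6 entry with exon 21, of 18 bases, took 59.0%, 61.1% and 63.0% in NF-YAcKO and 68.2%, 63.8% and 74.5% in NF-YAfl/fl. The difference was -7.77 points, with the nearest libraries less than 1 point apart (exact permutation test, p = 0.1), and -4.94 points without NF-YAfl/fl library 3. Both exons are coding and have a length divisible by 3, so that the reading frame is kept. Both shares rest on the authors' estimated split of reads between transcripts. In Trim72 a single entry held 28.9%, 32.5% and 41.1% of the gene's TPM in NF-YAcKO and 76.0%, 72.7% and 81.5% in NF-YAfl/fl, but the NF-YAcKO values rest on 62, 83 and 113 counts for the gene as a whole. In Dysf an entry that held 30.7%, 23.7% and 47.1% of the gene's TPM in the control libraries was listed at 0 in every NF-YAcKO library, where the gene had 609, 781 and 913 counts. A Cav1 entry held 43.2%, 41.2% and 43.4% in NF-YAcKO and 48.5%, 51.0% and 50.5% in NF-YAfl/fl, a difference of -7.43 points without overlap (exact permutation test, p = 0.1).

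**Figure D4:**
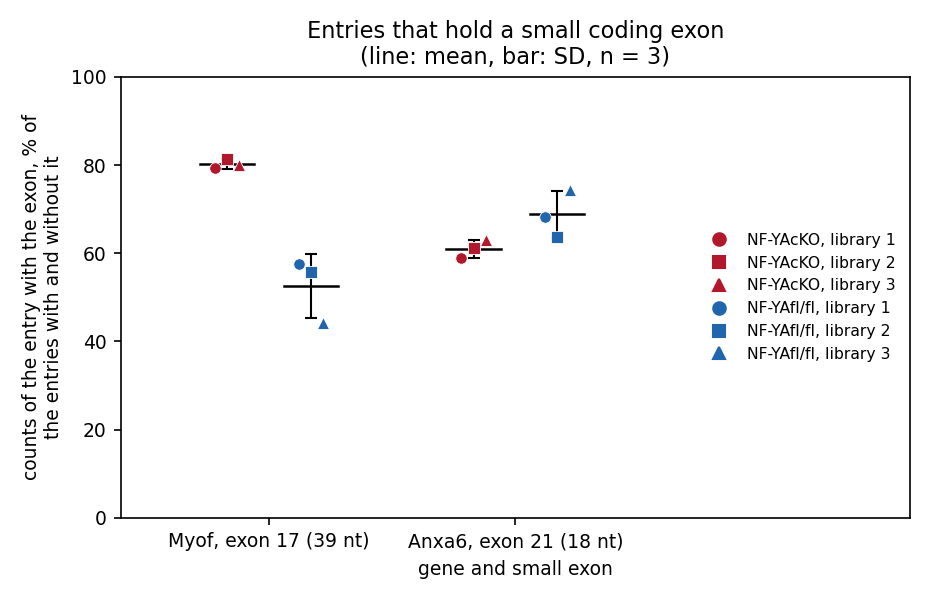
Counts of the transcript entry that holds a small coding exon, in percent of the entries with and without it, in every library (red: NF-YAcKO, blue: NF-YAfl/fl, line: mean, bar: SD, n = 3). The red points of Myof exon 17 lie between 79.3% and 81.4%, above all blue points, and those of Anxa6 exon 21 lie just below the blue points.

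A list of 62 further genes with roles in membrane repair was examined beside the 9, and 58 of them were tested. None was called higher and 8 were called lower by edgeR's quasi-likelihood test, beside 4.65% and 7.67% of all tested genes. DESeq2 also called 0 higher and 8 lower, and its own totals over all genes were 986 upward and 1804 downward. The edgeR shares are therefore no background for the DESeq2 counts. At an unadjusted p under 0.05 edgeR had 9 higher and 20 lower (24.6% and 24.1% of all tested genes), and at an FDR under 0.05 without a minimum fold change 6 higher and 18 lower (19.7% and 18.9%). The median log2 fold change of the list was -0.04, close to the -0.02 of all tested genes. The partners of dysferlin and MG53, of which 7 were tested, held 3 of the 8, and these were Ano5, Bin1 and Ahnak2. Ano5, the phospholipid scramblase-related protein whose loss causes a dystrophy like that of dysferlin, was at 16.3 ± 2.59 CPM in NF-YAcKO and 202 ± 73.6 CPM in NF-YAfl/fl (log2 fold change -3.63, edgeR FDR = 0.000455). Bin1, a membrane-bending protein of T-tubules, was at 163 ± 5.44 and 481 ± 96.1 CPM (-1.56, edgeR FDR = 0.000783). Ahnak2 was at 168 ± 25.7 and 353 ± 68.4 CPM (-1.07, edgeR FDR = 0.00412), and it lost its call in 5 of 14 alternatives, among which was the one without NF-YAfl/fl library 3 (-0.90).

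The muscle caveola coat gave 2 of the 8. Cavin4, the muscle cavin, was at 6.63 ± 2.92 CPM in NF-YAcKO and 172 ± 41.4 CPM in NF-YAfl/fl (log2 fold change -4.69, edgeR FDR = 0.000337). Pacsin3, a muscle-enriched F-BAR protein, was at 11.8 ± 0.559 and 73.5 ± 16.8 CPM (-2.64, edgeR FDR = 0.000177). The other 9 tested coat genes, with Cav2 and the widely expressed cavins among them, were not called. Among them Cavin2 was at 42.3 ± 3.92 and 82.7 ± 4.96 CPM (-0.97, edgeR FDR = 0.00101), just under the minimum fold change. Cavin1 (-0.26, edgeR FDR = 0.315) and Cavin3 (0.06, edgeR FDR = 0.726) changed less. At an FDR under 0.05 without a minimum fold change, 4 of the 11 coat genes were lower and 0 higher, where 18.9% and 19.7% of tested genes were. Capn3, the muscle calpain that binds dysferlin, had 2, 5 and 7 counts in NF-YAcKO and 84.2, 55.5 and 28.3 CPM in NF-YAfl/fl. It was the only one called of 4 calpains tested, and it was lower (log2 fold change -8.81, edgeR FDR = 0.000177). The value ran from -9.17 to -8.41 over the alternatives fitted to counts. By limma it was -4.31 on log2(TPM + 1) and -7.08 on log2(TPM + 0.1). The added constants are large beside the 0.03 to 0.07 TPM of Capn3 in NF-YAcKO. Anxa11 was the only one called of 6 further annexins tested, with 23.5 ± 0.477 CPM against 63.2 ± 16.2 CPM (-1.43, edgeR FDR = 0.00174). Its call was lost without NF-YAcKO library 2 (FDR = 0.0125). Vamp2, a vesicle SNARE, was the only one called of 11 exocytosis genes tested, at 5.49 ± 0.482 and 13.5 ± 4.62 CPM (-1.30, edgeR FDR = 0.00777). It lost its call in 8 of 14 alternatives, each left-out library included, with values of -1.47 to -0.99 over these libraries.

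The 15 genes of the ESCRT machinery, which pinches off damaged membrane, had no call. In 7 of these 15 genes every NF-YAcKO library was above every control, where 29.1% of tested genes had this order. In 0 of them every NF-YAcKO library was below, where 26.2% of tested genes had that order. At an unadjusted p under 0.05 edgeR had 4 of them higher, a share near the 24.6% of all tested genes, and 0 lower. The smallest FDR was that of Pdcd6, the calcium sensor of this machinery, at 53.0 ± 0.960 CPM in NF-YAcKO and 30.0 ± 4.86 CPM in NF-YAfl/fl (log2 fold change 0.82, edgeR FDR = 0.00407), under the minimum fold change of a call. No other ferlin was called of the 2 tested, with Fer1l5 at -0.98 (edgeR FDR = 0.0238) and at 0.585 ± 0.0378 and 1.16 ± 0.206 CPM. Of the S100 partners of annexins neither was called, and S100a11 had the smaller FDR, with 29.4 ± 3.47 CPM in NF-YAcKO and 52.9 ± 12.8 CPM in NF-YAfl/fl (-0.85, edgeR FDR = 0.0119).

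**Figure D5:**
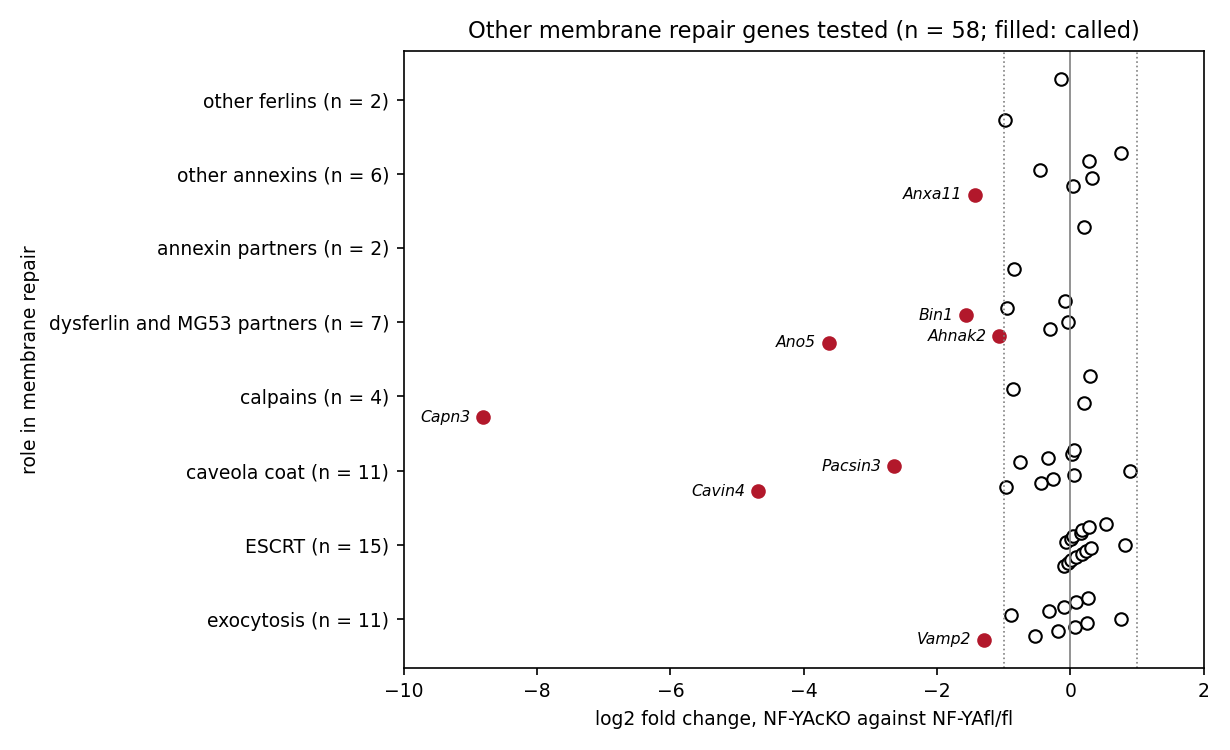
Log2 fold change between NF-YAcKO and NF-YAfl/fl of the 58 tested genes of the further list, 1 point per gene, grouped by role in membrane repair. The 8 filled points were called, all of them lower (dotted lines: log2 fold change of 1 in either direction), and the 15 ESCRT genes lie between -0.09 and 0.82.

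Genes with the most similar pattern were found by Pearson's r of log2 CPM over the 6 libraries, among tested genes whose mean level reached 10 CPM. The points share the split by genotype, so that r is a description without a p. Trim72 was nearest to Mef2c (r = 0.9998), a myogenic transcription factor, and to Scn4a, the muscle sodium channel. Cav3 was nearest to Mef2c and Dysf, and Dysf to Ablim3 and Cav3. The genes nearest to Cav1 were Hdlbp and Cyp51, those nearest to Anxa2 were Sqle and Sema6d, and those nearest to Anxa1 were Elovl6 and Galk2. Myof was nearest to Agpat4 and Ptger4, Anxa5 to Cflar and Kcnab1, and Anxa6 to Iws1 (r = 0.977) and Map3k3.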

How the data were processed

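Libraries of total RNA from 3 NF-YAcKO and 3 NF-YAfl/fl samples were grouped by the sample labels. Per the submitters' processing notes and methods, bowtie2 alignment (transcriptome of mm10) was followed by RSEM. The values deposited by the authors are expected counts (estimated counts, not normalized), TPM and, per transcript, the percent of the gene's TPM. RSEM divides shared reads by likelihood, which makes the values of paralogs, overlapping genes and transcripts estimates. Expected counts were rounded, genes without a count above 10 in 2 libraries or more were left out, and the remaining 17348 were tested with edgeR 4.0.16 in R 4.3.3 (TMM, quasi-likelihood test, no covariates). Calls required FDR below 0.01 and a log2 fold change beyond 1. The 95% intervals of log2 fold changes are not adjusted for the number of genes. They rest on a dispersion per gene that both genotypes share. The biological coefficient of variation, the spread between libraries beyond counting error, was 0.105 in NF-YAcKO and 0.310 in NF-YAfl/fl. Shares and transcripts were compared with two-sided exact permutation tests. The edgeR step was tested on simulated data. Alternatives used DESeq2 1.42.0, limma 3.58.1 on log2(TPM + 1) and log2(TPM + 0.1), other filters and normalization, a replicate block and left-out libraries. All 9 genes were named. Of the further list, called genes were named (up to 4 per role), or else the gene with the smallest FDR in the role, and the 2 genes most like each member. The members and all lists were chosen with earlier results of these data known. Counting error alone would allow 3 counts where 0 were seen, and the total expected counts of 26936230 to 41118984 set this floor.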

Additional observations from a re-analysis of the deposited data

How the results depend on the processing

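Trim72, Dysf and Cav3 were called lower, and no member higher, in each of the 16 alternatives. Over left-out libraries the log2 fold change ranged from -0.20 (without NF-YAfl/fl replicate 3) to 0.58 for Cav1, from -0.0076 (without NF-YAfl/fl replicate 3) to 0.26 for Anxa5 and from -0.0026 (without NF-YAcKO replicate 2) to 0.13 for Anxa6, and the difference in the share of Anxa2 among the annexins from -0.939 to 2.05 percentage points, with a value of -0.142 without NF-YAfl/fl replicate 2. None of these had passed a test. Over left-out libraries the number of all tested genes called higher ranged from 177 to 890 and those called lower from 523 to 1684. limma called 231 genes higher and 704 lower on log2(TPM + 1), and 361 higher and 1067 lower on log2(TPM + 0.1). In the further list, an FDR under 0.05 without a minimum fold change gave 6 higher and 18 lower in place of 0 and 8. The cause was not tested.

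Replicate numbers did not pair the libraries (same-numbered correlations of 0.165, -0.0693 and 0.0527). With a replicate block 3 members were called lower, 625 genes were called higher and 947 lower, and Vamp2 lost its call (-1.26, FDR = 0.0122), the only one to do so among the 9 members and the 8 called genes of the further list. Low counts limit Trim72, Cav3 and Capn3 in NF-YAcKO, and 3 libraries per genotype limit the exact permutation tests of shares and transcripts to p = 0.1.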
